A study of Mus musculus with 31 samples.

Results

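The 10 genes described here code for proteins that neutrophils hold in their granules or cytosol or carry on their surface. The genes are S100a8, S100a9, Ngp, Camp, Ltf, Lcn2, Retnlg, Mmp8, Mmp9 and Cxcr2. They were taken by gene symbol from count tables that list 55401 genes, and all 10 symbols were found. Their levels were followed in 31 RNA-seq libraries, each of 1 mouse of 13 months of age, from whole-brain CD11b+ cells (22 libraries) or temporo-occipital cortex (9 libraries).

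All mice were on a C57Bl/6J background. A- marks mice without and A+ marks mice with the APPswe/PS1dE9 transgene, a model of β-amyloid pathology in which mutant APP and PS1 are driven by the mouse prion protein promoter and therefore not by a microglial one. Pwt/wt marks mice with unedited Plcg2, and Pki/ki marks mice homozygous for the PLCγ2-P522R codon change introduced by CRISPR/Cas9, which gene counts cannot show. CD11b+ cells came from male A-/Pwt/wt (n = 3) and A-/Pki/ki (n = 4) mice and from female A-/Pwt/wt (n = 7), A+/Pwt/wt (n = 4) and A+/Pki/ki (n = 4) mice. Cortex came from female A-/Pwt/wt (n = 1), A+/Pwt/wt (n = 4) and A+/Pki/ki (n = 4) mice. CD11b is an integrin subunit of microglia that neutrophils, monocytes and border macrophages share, so that a magnetic CD11b selection can retain all of these cells. The brains were perfused before dissection, per the methods of the study.

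Neutrophils are short-lived white blood cells made in the bone marrow. As they mature they fill their granules in a fixed order: primary granules with myeloperoxidase and serine proteases in promyelocytes, secondary or specific granules with lactoferrin, lipocalin 2, cathelicidin and neutrophilic granule protein in myelocytes, and tertiary granules with gelatinase later on. S100A8 and S100A9 fill the cytosol of mature cells, and CXCR2 is the chemokine receptor that guides mature cells out of the marrow and into tissue. The healthy brain parenchyma holds few neutrophils.

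The genes lie on 5 chromosomes of the mouse genome (build GRCm38). S100a8 (ENSMUSG00000056054.9, chr3:90668978-90670035, plus strand) and S100a9 (ENSMUSG00000056071.12, chr3:90692632-90695721, minus strand) are neighbours and code for the subunits of the calcium-binding protein calprotectin. Camp (ENSMUSG00000038357.10, chr9:109847379-109849617), Ngp (ENSMUSG00000032484.8, chr9:110419747-110423012) and Ltf (ENSMUSG00000032496.7, chr9:111019271-111042767) lie close together on chromosome 9, and Mmp8 (ENSMUSG00000005800.3, chr9:7558456-7568485) lies at the other end of it. Lcn2 (ENSMUSG00000026822.14, chr2:32384633-32388252) and Mmp9 (ENSMUSG00000017737.2, chr2:164940780-164955850) are on chromosome 2, Retnlg (ENSMUSG00000022651.6, chr16:48872621-48874496) is on chromosome 16 and Cxcr2 (ENSMUSG00000026180.8, chr1:74153989-74161246) is on chromosome 1. All 10 identifiers matched the Gencode M21 annotation of that build, and the exons of none of the 10 overlapped an exon of another gene in it. By that annotation, counting without regard to strand would not mix them with a neighbour. The counts were made with Gencode M25, in which overlap was not checked.

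The letters before the start sites of the 10 genes were compared as a description, and shared control was not tested. RefSeq promoters (GRCm38.p6, 250 bases before to 50 after the start) were found for 9 of the 10 genes, and Mmp9 had no entry. The 250 bases before the start were searched on both strands for TTGCNNAA (on the other strand TTNNGCAA), a short form of the C/EBP site, and for GAGGAA (on the other strand TTCCTC), the core of the PU.1 site, since both factors are known to drive neutrophil development. The first was found in 6 of the 9 promoters and in 9.56% of 32851 promoters of all genes, and the second in 5 of the 9 and in 23.3% of all. Such a match is a string of letters and was not tested as a binding site. Both were found in Ltf, Lcn2 and Mmp8, and in 2.07% of all promoters. The sequences are shown for the calprotectin pair S100a8 and S100a9, for Ngp and Ltf of the secondary granule and for Mmp8, so that the first motif can be seen in 4 of the 5 and the second in 3. They run 5′ to 3′ on the strand of the gene and stop before the first start site that RefSeq or Gencode gives, and capitals mark the motifs (a further match each in S100a8 and Ngp lies past that point).
S100a8 (chr3:90668821-90668977, plus strand): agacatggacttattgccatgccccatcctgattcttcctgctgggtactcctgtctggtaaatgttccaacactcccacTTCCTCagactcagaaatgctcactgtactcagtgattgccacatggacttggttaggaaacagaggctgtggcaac
S100a9 (chr3:90695722-90695971, minus strand): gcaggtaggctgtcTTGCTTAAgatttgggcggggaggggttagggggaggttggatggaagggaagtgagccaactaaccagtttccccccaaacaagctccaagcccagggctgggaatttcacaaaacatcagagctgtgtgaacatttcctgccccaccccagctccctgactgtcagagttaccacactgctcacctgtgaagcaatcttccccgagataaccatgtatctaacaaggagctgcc
Ngp (chr9:110419558-110419746, plus strand): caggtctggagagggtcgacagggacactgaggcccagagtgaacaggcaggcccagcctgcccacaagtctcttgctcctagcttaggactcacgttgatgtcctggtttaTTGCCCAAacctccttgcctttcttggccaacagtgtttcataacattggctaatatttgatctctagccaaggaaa
Ltf (chr9:111019042-111019270, plus strand): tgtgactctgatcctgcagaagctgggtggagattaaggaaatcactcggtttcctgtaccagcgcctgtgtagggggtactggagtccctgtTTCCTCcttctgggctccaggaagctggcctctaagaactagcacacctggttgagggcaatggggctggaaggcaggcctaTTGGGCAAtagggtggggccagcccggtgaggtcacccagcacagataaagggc
Mmp8 (chr9:7558179-7558428, plus strand): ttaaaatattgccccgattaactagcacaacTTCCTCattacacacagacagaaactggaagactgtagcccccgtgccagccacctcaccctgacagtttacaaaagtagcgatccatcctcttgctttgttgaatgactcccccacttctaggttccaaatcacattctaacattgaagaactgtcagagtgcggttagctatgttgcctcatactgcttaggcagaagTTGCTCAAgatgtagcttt

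Library totals were 16229831 to 25118180 counts in CD11b+ cells and 25226544 to 43129427 counts in cortex. Levels are given as CPM, counts scaled to a common library total, with trimmed-mean (TMM) factors within each of the 3 tables (cortex, female CD11b+, male CD11b+), so that a level set across tables rests on separate scalings. The 8 microglial markers listed summed to 11519 to 26687 CPM in the CD11b+ libraries, which therefore carried their labelled cell type. Transcripts of other brain cells were also present in them (8 neuronal markers, 165 to 4120 CPM). A pair of CD11b+ libraries stood apart. That of A+/Pki/ki mouse 335 was the highest in all 10 genes, and that of female A-/Pwt/wt mouse 236 was second in S100a8, S100a9, Ngp, Camp, Ltf and Lcn2 and had 1126 CPM of 6 erythroid markers against 7.65 to 187 CPM in the other 21. Mouse number 236 is also given for a cortex library labelled A+/Pwt/wt, which cannot be the same mouse, and both labels were used as given. For several of the genes, fold changes and likenesses are also given without one or both of these libraries.

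In CD11b+ cells all 10 transcripts were detected in every library, and in cortex they were near the limit of detection except for Mmp9. S100a9 and S100a8 were the most abundant per length of transcript. Over the 22 CD11b+ libraries the median level per kilobase of exon was 96.5 CPM for S100a9, 44.3 for S100a8, 26.5 for Ngp, 11.2 for Retnlg and 10.2 for Camp. It was 7.68 for Ltf, 4.19 for Lcn2, 3.67 for Mmp9, 1.60 for Mmp8 and 0.789 for Cxcr2. S100a9 was above S100a8 in 22 of 22 libraries on this scale, and Ngp above Retnlg and Mmp9 above Mmp8 likewise. Retnlg and Camp could not be ordered, since Retnlg was the higher in 8 of 22. The other neighbours in the order kept their places in 20 or 21 of the 22 libraries.

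S100a8, a subunit of calprotectin, was 26.4, 23.0 and 33.0 CPM in the CD11b+ cells of the 3 male A-/Pwt/wt mice (101, 102 and 94) and 52.6, 41.7, 22.3 and 53.5 CPM in the 4 male A-/Pki/ki mice (104, 136, 139 and 84). In female mice it was 12 to 146 CPM in the 7 A-/Pwt/wt libraries (median 24.6) and 12.8, 28.8, 32.7 and 26.2 CPM in the 4 A+/Pwt/wt libraries (331, 367, 375 and 380). In the 4 A+/Pki/ki libraries it was 108, 403, 9.93 and 48.4 CPM (244, 335, 394 and 405). The A+/Pki/ki group thus held both the highest and the lowest S100a8 level of all 22 libraries, and every group overlapped every other. S100a9, its partner, followed it in each library, at 116.5 to 209.2% of its CPM. It was 15.5, 33.6, 41.8 and 34.5 CPM in the A+/Pwt/wt libraries and 135, 494, 13.1 and 65.8 CPM in the A+/Pki/ki libraries, in the same orders of mice. In the female A-/Pwt/wt libraries it was 22 to 173 CPM (median 29.9). In males it was 52.5, 48.2 and 61 CPM in A-/Pwt/wt and 87.9, 76.3, 44.7 and 74 CPM in A-/Pki/ki, so that 3 of the 4 Pki/ki mice lay above the 3 Pwt/wt mice and mouse 139 lay below them.

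Ngp, a neutrophilic granule protein of the cathelicidin family, was 115, 442, 7.18 and 51.3 CPM in the A+/Pki/ki libraries in the same order. It was 7.06, 21.1, 26.1 and 29.7 CPM in the A+/Pwt/wt libraries and 18.7 to 151 CPM in the female A-/Pwt/wt libraries (median 25.3). In male mice it was 24.9, 35 and 47.2 CPM in A-/Pwt/wt and 54, 81.1, 25.1 and 70 CPM in A-/Pki/ki. Ngp thus repeated the order of S100a8 among the A+/Pki/ki mice, with 335 first and 394 last. Camp, the antimicrobial cathelicidin of mice, spanned the widest range of the 10, from 0.611 CPM (12 counts) in mouse 394 to 116 CPM (2448 counts) in mouse 335, a ratio of 190 (the second highest level was 55.4 CPM, in mouse 236). Both of these mice are A+/Pki/ki, so that 1 genotype spanned the whole range. Camp was 1.39, 5.02, 5.83 and 7.4 CPM in the A+/Pwt/wt libraries and 1.86 to 55.4 CPM in the female A-/Pwt/wt libraries (median 6.87). Ltf, the iron-binding lactoferrin, was 82.3, 282, 4.89 and 37.1 CPM in the A+/Pki/ki libraries and 5.19, 13.8, 20.6 and 26.5 CPM in the A+/Pwt/wt libraries. Lcn2, which binds bacterial siderophores, was 38.7, 130, 4.38 and 18.5 CPM in the A+/Pki/ki libraries and 3.62, 6.8, 9.46 and 9.59 CPM in the A+/Pwt/wt libraries. Both had their lowest values in mice 394 and 331. In the female A-/Pwt/wt libraries Ltf was 15.5 to 115 CPM (median 21.2) and Lcn2 5.99 to 47.8 CPM (median 9.39). In male mice Ltf was 22.7, 26.5 and 40.6 CPM in A-/Pwt/wt and 43.6, 63.5, 25.2 and 52.9 CPM in A-/Pki/ki, where Lcn2 was 9.46, 12.2 and 17.3 CPM and 18.8, 24.6, 9.77 and 21.1 CPM. Ngp, Camp, Ltf and Lcn2 each had the order 335, 236, 244 at the top, and so did S100a8 and S100a9.

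The gelatinase Mmp9 and the receptor Cxcr2 varied least of the 10. Retnlg, a resistin-like protein of neutrophils, was 19.2, 42.5, 1.32 and 8.58 CPM in the A+/Pki/ki libraries and 2.15, 3.15, 6.33 and 5.15 CPM in the A+/Pwt/wt libraries. Mmp8, the neutrophil collagenase, was 13.0, 19.7, 1.83 and 6.14 CPM in the former and 1.52, 2.3, 3.85 and 3.58 CPM in the latter. For both, mouse 244 and not mouse 236 was second to mouse 335. In the female A-/Pwt/wt libraries Retnlg was 1.68 to 17.8 CPM (median 8.72) and Mmp8 0.555 to 6.92 CPM (median 2.64). In male A-/Pwt/wt and A-/Pki/ki mice Mmp8 was 5.17, 2.88 and 5.66 CPM and 6.24, 4.13, 3.77 and 3.92 CPM, and Retnlg was 5.58, 5.38 and 6.97 CPM and 13.3, 5.36, 7.86 and 8.17 CPM. The male groups overlapped in both. Mmp9, the gelatinase of tertiary granules, was 18.4, 13 and 13 CPM in male A-/Pwt/wt, 19.4, 13.5, 15.5 and 19.3 CPM in male A-/Pki/ki, and 27.4, 43.4, 5.91 and 13.2 CPM in female A+/Pki/ki libraries. It was 4.6, 7.61, 11.3 and 11.5 CPM in A+/Pwt/wt and 6.64 to 18.7 CPM in female A-/Pwt/wt libraries (median 9.86). Only mice 335 and 244 thus exceeded the Mmp9 level of all males. Cxcr2 was 4.6, 4.74, 1.27 and 2.85 CPM in the A+/Pki/ki libraries and 0.58 to 2.76 CPM in the female A-/Pwt/wt libraries (median 1.63). It was 1.03, 1.79, 2.37 and 1.53 CPM in A+/Pwt/wt, 4.29, 1.74 and 2.81 CPM in male A-/Pwt/wt and 3.19, 3.68, 2.72 and 2.58 CPM in male A-/Pki/ki libraries. Between the highest and the lowest of the 22 libraries Cxcr2 differed 8.18-fold and Mmp9 9.42-fold, whereas the other 8 genes differed 32.1-fold (Retnlg) to 190-fold (Camp). Between mice 335 and 244 the CPM of Cxcr2 stood in a ratio of 1.03, whereas that of S100a8 stood in a ratio of 3.72 and that of Camp in one of 4.99.

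**Figure D1:**
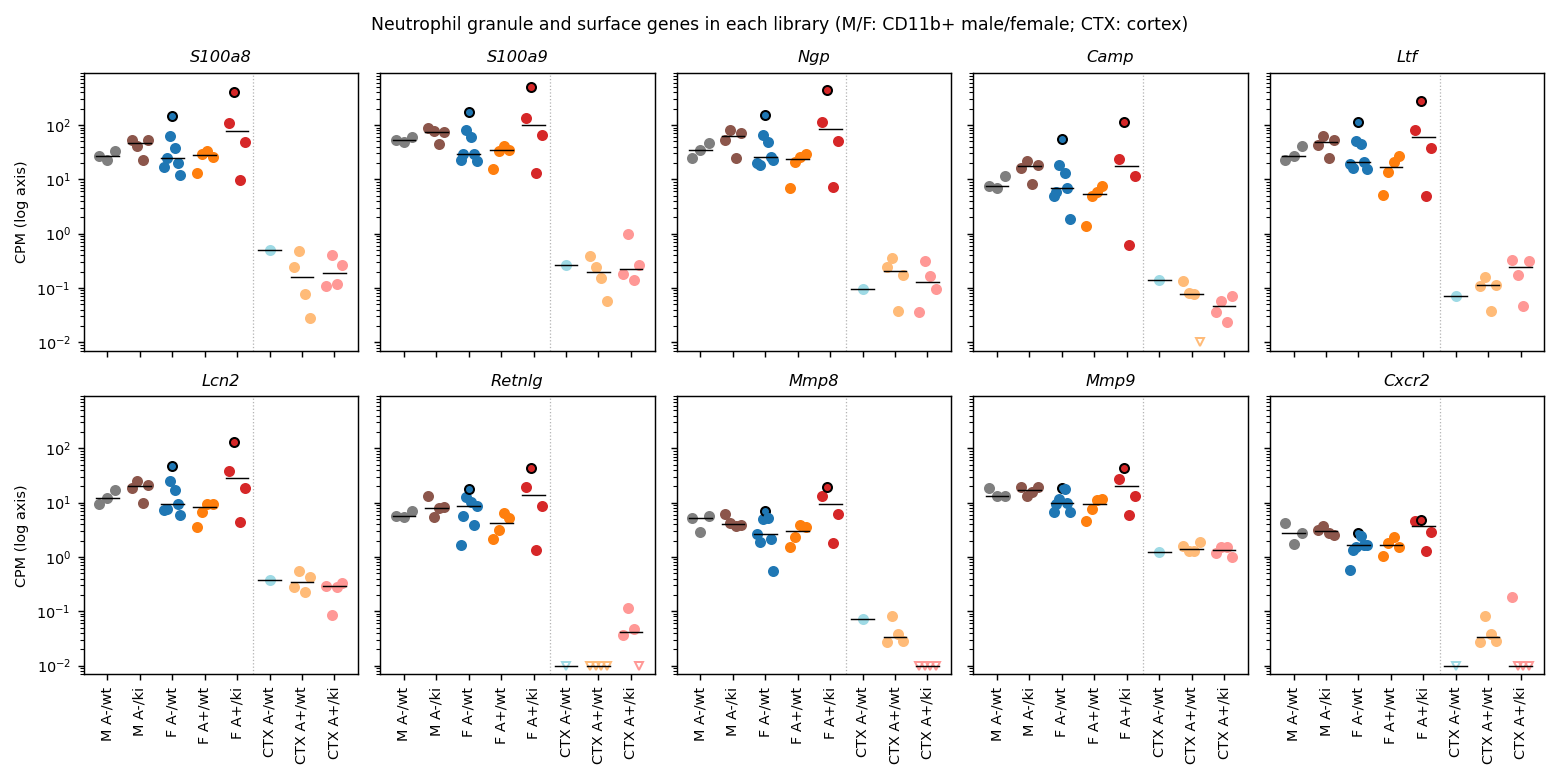
CPM of each of the 10 genes (log axis) in each library, by group; points are libraries, horizontal lines are group medians, open triangles drawn at 0.01 are libraries with 0 counts, and black outlines mark CD11b+ mice 335 and 236. All cortex libraries lie below all CD11b+ libraries in every panel, and mouse 335 is the highest CD11b+ library in every panel.

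The cortex held these transcripts at a small fraction of the level in CD11b+ cells. In the 9 cortex libraries S100a8 was 0.0284 to 0.501 CPM (78 counts in all), S100a9 0.0569 to 1.01 CPM (94 counts) and Ngp 0.0364 to 0.361 CPM (52 counts). Retnlg had 7 counts, Mmp8 8 counts and Cxcr2 10 counts over all 9 libraries, and Retnlg had 0 counts in 6 of them. In the 1 cortex library of an A-/Pwt/wt mouse S100a8 was 0.494 CPM of the unscaled library total (exact 95% binomial interval 0.306 to 0.756), and Retnlg and Cxcr2 had 0 counts, which allows up to 0.0706 CPM by the limit of 3 counts. These intervals cover counting error only. Mmp9 was the exception at 0.984 to 1.85 CPM, and its 431 counts were 51% of those of all 10 genes together.

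CD11b+ cells and cortex of A+ females were compared with 8 libraries of each tissue and with Plcg2 genotype as a term (edgeR quasi-likelihood test, Benjamini-Hochberg adjustment over 19942 genes, threshold 0.05). Of the 10 genes, 4 (S100a8, S100a9, Lcn2 and Mmp9) could be compared, and all 4 were higher in CD11b+ cells. Of all genes tested, 84.4% were called in either direction and 40.6% were called higher in CD11b+ cells. Mmp9 showed the smallest difference of the 4, a log2 fold change of 3.64 ± 0.41 (SE; adjusted p = 4.21e-07), and Lcn2 (6.38 ± 0.78, adjusted p = 1.03e-06) came next. S100a8 differed by 8.71 ± 0.84 (adjusted p = 5.72e-08) and S100a9 by 8.53 ± 0.80 (adjusted p = 4.28e-08). These 4 would have passed the minimum of 10 counts in 3 libraries in cortex alone. Ngp, Camp, Ltf, Retnlg, Mmp8 and Cxcr2 entered the test only through the CD11b+ libraries and so had to be higher there, and their fold changes are not given. Without mouse 335 the log2 fold change of S100a8 was 7.80 and that of Lcn2 was 5.61. The tissues came from different mice, brain parts and RNA kits, which cannot be told apart from the selection, and more cells of a type and more RNA per cell cannot be told apart in bulk RNA, here or below.

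Within CD11b+ cells the 10 genes varied together from mouse to mouse. To describe this apart from genotype, log2(CPM + 1) was centred on the mean of each group. Over the 22 libraries the 28 pairs without Mmp9 and Cxcr2 then had Pearson r of 0.783 to 0.993 (median 0.959), and the 17 pairs with either had 0.711 to 0.913 (median 0.821). The values without mouse 335 were 0.718 to 0.990 (median 0.938) and 0.679 to 0.876 (median 0.810). Among the 17 pairs, over all 22 libraries, Cxcr2 had 0.711 (with Lcn2) to 0.821 (with Mmp9). Apart from its pair with Cxcr2, Mmp9 had 0.873 (with Lcn2) to 0.913 (with S100a9). The lowest of the 28 pairs was Retnlg with Mmp8 (0.783). Both genes of a pair share the depth and scaling of each library, and no p-value is given.

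The largest group, the 7 female A-/Pwt/wt mice, is of 1 genotype and 1 tag in the sample names (b3) and allowed a test that no genotype enters. S100a8 was compared with each of the other 9 genes there. No further genes were tested against it, so the share of all genes that would pass is not known. S100a9 had the same rank order as S100a8 (Pearson r = 0.997, exact permutation p = 0.000198, adjusted 0.00179, Spearman rho = 1, exact permutation p = 0.000397, adjusted 0.00357), and the first of these is the smallest p that 5040 permutations can give. Camp (r = 0.994, rho = 0.964) and Lcn2 (r = 0.993, rho = 0.964) followed S100a8 nearly as closely, each with an exact permutation p of 0.00278 for rho (adjusted 0.00833). Cxcr2 did not pass, with r = 0.687 (exact permutation p = 0.105, adjusted 0.105) and rho = 0.5 (exact permutation p = 0.267, adjusted 0.267). Ngp, Retnlg and Mmp8 passed by r (exact permutation, adjusted p = 0.00565, 0.00638 and 0.00565) but not by rho, which was 0.75, 0.786 and 0.821 (exact permutation, adjusted p = 0.0746, 0.0617 and 0.0512). Ltf and Mmp9 passed by both, each with rho = 0.893 (exact permutation p = 0.0123, adjusted 0.0221). Without mice 236 and 225, which lay farthest from the median of S100a8, r was 0.963 for S100a9, 0.962 for Camp, 0.927 for Lcn2, 0.961 for Mmp9, 0.674 for Cxcr2 and 0.488 for Retnlg.

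The transcripts most like the 10 genes were looked for among the 14698 genes whose mean over the 22 CD11b+ libraries reached 1 CPM, as the Pearson r of the centred values with the mean of the 10 genes, each scaled to unit SD. Among the nearest were Cd177 (r = 0.961), Chil3 (0.959), Ifitm6 (0.948), Itgb2l (0.909), Ly6g (0.909), Hp (0.904), Anxa1 (0.901), Ly6a2 (0.897) and Ly6c2 (0.885). Cd177 is a surface glycoprotein of neutrophils and is also stored in their specific granules, Chil3 a chitinase-like protein, Ly6g the antigen by which mouse neutrophils are commonly sorted and Hp haptoglobin. Of these 9, 6 were in the lists of further neutrophil genes drawn up with the 10 members, Ly6c2 was in the monocyte list, and Anxa1 and Ly6a2 were in no list. Ly6g itself was sparse, at 0 to 6.4 CPM with a median of 0.645. Each of the 9 had its highest level in mouse 335, and without that library their r was 0.832 to 0.944. The likeness is a description over libraries that share the 10 genes' own depth and scaling, and it says nothing of shared control.

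**Figure D2:**
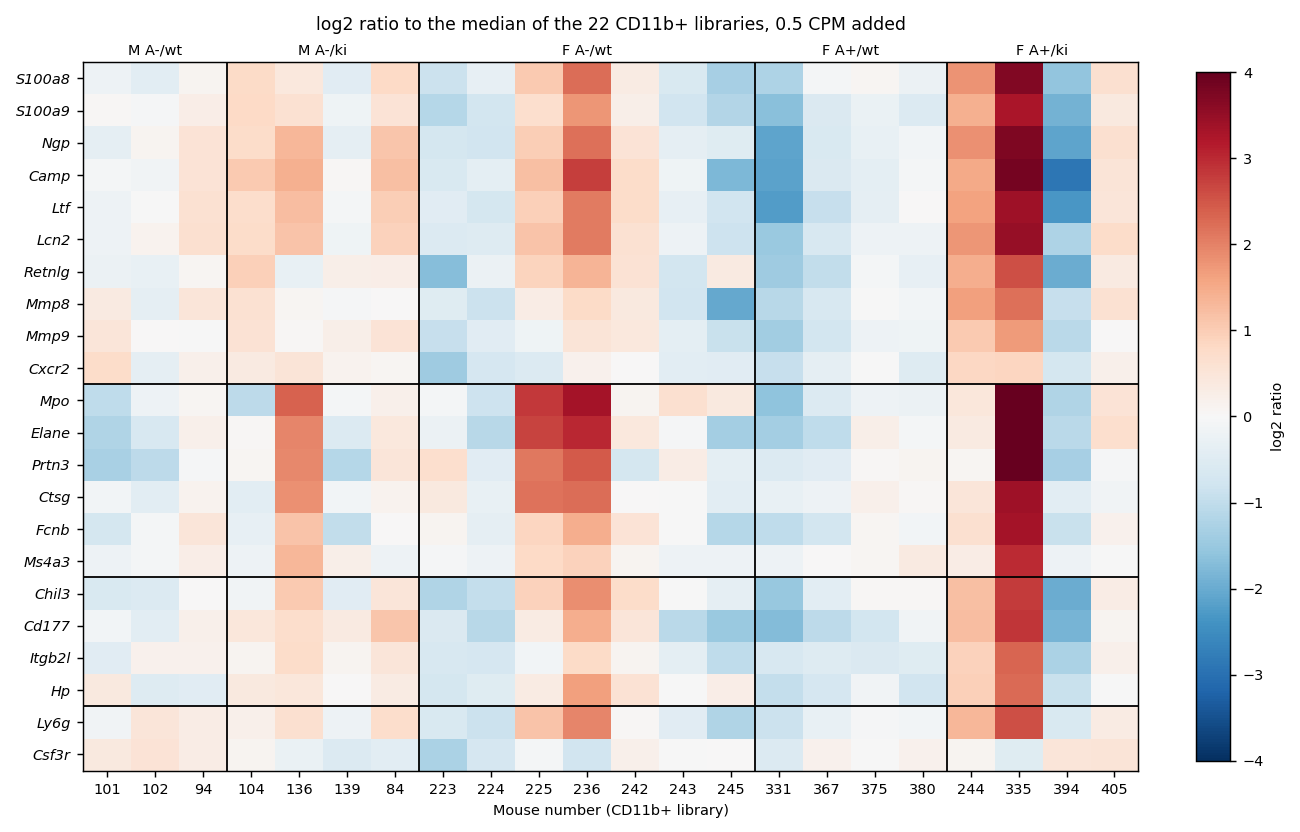
log2 ratio of each gene's CPM to its median over the 22 CD11b+ libraries (0.5 CPM added to both), in columns by mouse and group. The upper block holds the 10 genes. Below it stand 6 primary granule genes, 4 genes of other granules and the surface genes Ly6g and Csf3r. Mice 335 and 236 are high in the first 3 blocks. Mouse 244 is high among the 10 genes and the other granule genes but only a little above the median in the primary granule block. Csf3r shows no such pattern by mouse.

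Genes of the primary granule, which are transcribed earlier in maturation, separated libraries that the 10 genes put side by side. Mpo, the myeloperoxidase of primary granules, was 56.3 CPM in mouse 335, 19.1 CPM in mouse 236, 13.3 CPM in mouse 225 and 9.43 CPM in male A-/Pki/ki mouse 136. It was 2.15 CPM in mouse 244, although S100a8 was higher there (108 CPM) than in mice 225 (63.9 CPM) and 136 (41.7 CPM). Relative to S100a8, Mpo was 14% in mouse 335, 13.1% in mouse 236, 20.8% in mouse 225 and 22.6% in mouse 136, but 1.98% in mouse 244, with a median of 4.54% over the 22 libraries. Elane, the neutrophil elastase, was likewise 31 CPM in mouse 335, 9.78 CPM in mouse 236, 7.85 CPM in mouse 225 and 1.14 CPM in mouse 244, and Prtn3, proteinase 3, 23.7, 7.08, 5.4 and 0.965 CPM in the same mice. Prtn3 was also counted in cortex, at 0.803 to 2.57 CPM. The 6 primary granule genes summed to 6.14 CPM in mouse 244, rank 5 from the top, with a median of 4.38 CPM over the 22 libraries. The percentages are ratios of CPM and not of levels per length, and the scaling between libraries cancels in them. Cxcr2, a receptor of mature cells, was 1.18% of S100a8 in mouse 335, 1.89% in mouse 236, 2.35% in mouse 225 and 4.25% in mouse 244, against a median of 6.27%. In mouse 136 it was 8.82%, so the mice high in Mpo relative to S100a8 did not all have a low share of Cxcr2.

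**Figure D3:**
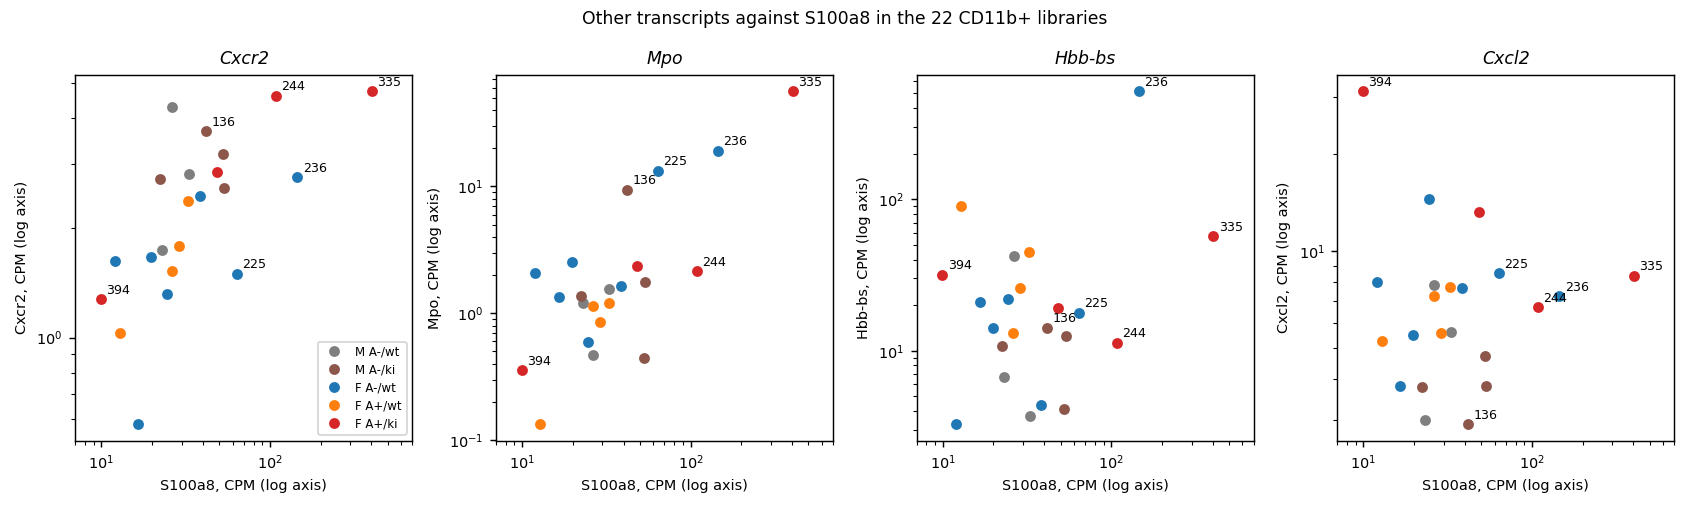
CPM of Cxcr2, Mpo, Hbb-bs and Cxcl2 against S100a8 (log axes) in the 22 CD11b+ libraries, coloured by group, with the mice named in the text labelled. Mpo of mice 335, 236, 225 and 136 lies above 9 CPM and that of the other 18 libraries lies below 3 CPM, Hbb-bs is highest in mouse 236 and Cxcl2 is highest in mouse 394.

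Markers of other cell types were read in the same libraries. All 6 erythroid markers were counted in every female group, and they summed to 28 to 126 CPM in A+/Pki/ki, 26.9 to 187 CPM in A+/Pwt/wt and 8.84 to 1126 CPM in female A-/Pwt/wt libraries. They summed to 1126 CPM in mouse 236, 126 CPM in mouse 335, 28 CPM in mouse 244 and 62.3 CPM in mouse 394, with a median of 36.7 CPM. Among all CD11b+ libraries these sums had ranks 1, 3, 14 and 6 from the top. Hbb-bs, a β-globin, was 516 CPM in mouse 236, 57.2 CPM in mouse 335 and 11.3 CPM in mouse 244. The 8 monocyte markers summed to 132 CPM in mouse 335, 129 CPM in mouse 236 and 112 CPM in mouse 244. These were ranks 3, 4 and 9 from the top, and all libraries spanned 66.2 to 141 CPM. Most abundant among them was F13a1, at 64.5, 68.1 and 70.5 CPM in these mice (median 64.7 CPM). Ccr2 was 19.0, 23.2 and 21.2 CPM (median 16.9 CPM), and Ly6c2 27.9, 14.6 and 7.59 CPM (median 3.21 CPM). The 11 lymphocyte markers summed to 271, 324 and 451 CPM, within 171 to 499 CPM. Of these, Ighm was 259, 301 and 438 CPM (median 303 CPM). Cd79b was 5.6, 13.9 and 8.24 CPM (median 6.49 CPM), and Gzma 0.806, 2.54 and 0.658 CPM (median 0.659 CPM). The 8 neuronal markers were 2019 CPM in mouse 335 and 1728 CPM in mouse 236 but 487 CPM in mouse 244, with a median of 779 CPM. The microglial sum was 14475 CPM in mouse 335 and 20940.5 CPM in mouse 244, against a median of 19369 CPM. The part of other blood cells and of other brain cells in the levels of the 10 genes was not tested.

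Genes that act with the 10 proteins were less like them than the 9 genes named above. Of 13 ligands, receptors and inhibitors listed, 8 reached a mean of 1 CPM, and their r with the mean of the 10 genes was -0.65 (Cxcl1) to 0.51 (Timp4), and without mouse 335 it was -0.51 (Cxcl1) to 0.35 (Timp2), with Timp4 at 0.28. Csf3r, the receptor for granulocyte colony-stimulating factor and a neutrophil surface gene by its list, was 241 to 846 CPM, with r = -0.16 on the centred scale and 0.10 without mouse 335. Cxcl2, a chemokine ligand of CXCR2, was highest in mouse 394 at 31.4 CPM, the library with the lowest S100a8, against 2.91 to 14.5 CPM in the other 21, and Cxcl1, another ligand, was 5.14 CPM there and 0.332 CPM in mouse 335. Timp2, an inhibitor of matrix metalloproteinases, was 340 to 860 CPM, and Tlr4, a receptor for calprotectin, 24 to 56.1 CPM. The r of Tlr4 likewise changed sign, from -0.26 to 0.16 without mouse 335. Slc22a17, a receptor for lipocalin 2, was 67.8 to 323 CPM. Cxcl3 and Lrp2 stayed below 0.3 CPM in every CD11b+ library. Of these genes Cxcl1, Cxcl2, Cxcl3, Tlr4, Lrp2 and Timp4 were picked after their values were seen.

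The first question taken up here was whether the PLCγ2-P522R variant changes gene expression in CD11b+ cells of males without β-amyloid. No member passed at an adjusted p of 0.05 (edgeR, 16373 genes tested), while 16.4% of all genes did. At an unadjusted p under 0.05 there were 2 members, S100a8 and Camp, beside 5452 of the 16373 genes, and DESeq2 called Camp. Each library is 1 mouse, so these p-values set the difference between groups against the spread between mice. Camp was 7.4, 7.01 and 11.5 CPM in A-/Pwt/wt (101, 102 and 94) and 16.4, 21.8, 8.1 and 18.4 CPM in A-/Pki/ki (104, 136, 139 and 84). Its log2 fold change was 0.90 ± 0.32 (SE), with an edgeR adjusted p of 0.0821 and a DESeq2 adjusted p of 0.0295. Mouse 139 lay within the range of the Pwt/wt mice, and the other 3 lay above it. S100a8 had 0.63 ± 0.27 (adjusted p = 0.14), Ngp 0.69 ± 0.36 (adjusted p = 0.211) and Cxcr2 0.05 ± 0.31 (adjusted p = 0.933). For all 10 genes the groups overlapped. Without mouse 139, 4 of the 10 passed: S100a8 (0.85, adjusted p = 0.0194), S100a9 (0.56, adjusted p = 0.0309), Ngp (0.94, adjusted p = 0.0444) and Camp (1.12, adjusted p = 0.0203), and over all genes that refit called 1353 against 2685 with all 7 libraries. The median log2 fold change of the 10 was 0.52, beside -0.0012 over all genes tested.

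In the same male comparison the related lists behaved unevenly, and their calls stand beside the 16.4% called over all genes. Of 9 further specific and tertiary granule genes, 2 rose, Pglyrp1, a bactericidal peptidoglycan-binding protein (0.81 ± 0.14, adjusted p = 0.00781), and Cd177 (0.83 ± 0.25, adjusted p = 0.0493), and none fell. Of 11 tested genes in the list of neutrophil surface receptors, 1 was called lower, Csf3r (-0.68 ± 0.16, adjusted p = 0.0237). Csf3r did not follow the 10 genes over the CD11b+ libraries (r = -0.16). It was 415 CPM in mouse 335 and 340 CPM in mouse 236, against a median of 580 CPM. Of 8 tested ligands, receptors and inhibitors, 1 rose, Timp4 (1.74 ± 0.18, adjusted p = 0.00374). None of 4 primary granule genes (log2 fold change 0.29 to 2.29) and of 9 mature neutrophil genes tested passed in edgeR. Only 3 of the 9 mature neutrophil genes had log2 fold changes above 0 (-1.01 to 1.00, median -0.24). The same held for 3 of the 11 surface receptors (-1.05 to 0.58, median -0.22). Of the 9 further granule genes, 6 were above 0 (-0.54 to 0.83, median 0.47). Cd177, Csf3r and Timp4 are named because they were the calls, after their values were seen, although Csf3r was also among the most abundant of its list. Markers of brain cells moved in this comparison as well: 8 of 8 neuronal markers were called higher in A-/Pki/ki, with a summed level of 613 to 1416 CPM against 190 to 276 CPM, as were 6 of 6 astrocyte markers and 2 of 6 endothelial markers (Ly6c1 and Cldn5). The endothelial sum was 1111.5 to 2397 CPM in A-/Pki/ki and 979.6 to 1412 CPM in A-/Pwt/wt. Called lower were 1 of 8 microglial markers (Sall1, -0.53 ± 0.13, adjusted p = 0.0239) and 1 of 4 tested platelet markers (Treml1, -1.28 ± 0.32, adjusted p = 0.0269). These 4 are named because they were called, after their values were seen. The platelet sum was 13.8 to 26.9 CPM in A-/Pki/ki and 24.5 to 27.4 CPM in A-/Pwt/wt. The microglial sum was 15624 to 26687 CPM in A-/Pki/ki and 25376 to 26341 CPM in A-/Pwt/wt. Their part in the values of the 10 genes was not tested.

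The next question was the effect of the variant in A+ females. All 10 genes had higher group means in A+/Pki/ki than in A+/Pwt/wt CD11b+ cells, and no member passed the test (edgeR, adjusted p = 0.853 for each of the 10, 17039 genes). Of all genes, 0% were called, with 575 at an unadjusted p under 0.05 and 7 called by DESeq2, none of them a member. At an unadjusted p under 0.05 there were 8 of the 10. Camp had a log2 fold change of 2.92 ± 1.22 (SE), Ngp of 2.85 ± 1.06, Lcn2 of 2.67 ± 0.91 and S100a8 of 2.48 ± 0.95. Mmp9 (1.32 ± 0.59) and Cxcr2 (0.96 ± 0.44) differed least. The median of the 10 was 2.47, beside 0.0043 over all genes.

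For each of the 10 genes, 3 of the 4 A+/Pki/ki libraries (335, 244 and 405) lay above all 4 A+/Pwt/wt libraries, and the fourth, mouse 394, lay within or below their range. S100a8 averaged 142 ± 179 CPM (SD, n = 4) in A+/Pki/ki and 25.1 ± 8.62 CPM (SD, n = 4) in A+/Pwt/wt. Mouse 335 alone had 8.34 times the median S100a8 of the other 3. Without mouse 335 the log2 fold change of S100a8 was 1.1 (adjusted p = 0.28), of Ngp 1.42 (adjusted p = 0.251), of Camp 1.21 (adjusted p = 0.374), of Lcn2 1.43 (adjusted p = 0.183) and of Cxcr2 0.75 (adjusted p = 0.282). Without mouse 394 that of S100a8 was 2.86. None of the further neutrophil genes was called by edgeR either. All 4 tested primary granule genes had log2 fold changes above 0 without passing. The 56.3 CPM of Mpo in mouse 335 stood against at most 2.36 CPM in the other 3 mice of its group and 0.134 to 1.21 CPM in A+/Pwt/wt. The neuronal sum was 165 to 2019 CPM in A+/Pki/ki and 832 to 1497 CPM in A+/Pwt/wt, and the microglial sum 14475 to 23110 CPM and 12732 to 20833 CPM. The 5 choroid plexus markers all had log2 fold changes below 0 (median -1.11) and 0 were called, and they summed to 905, 2387, 157 and 113 CPM in A+/Pki/ki (244, 335, 394 and 405) and 594 to 2731 CPM in A+/Pwt/wt. No list of other cell types held a call in this comparison, and the part of these markers in these values was not tested.

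**Figure D4:**
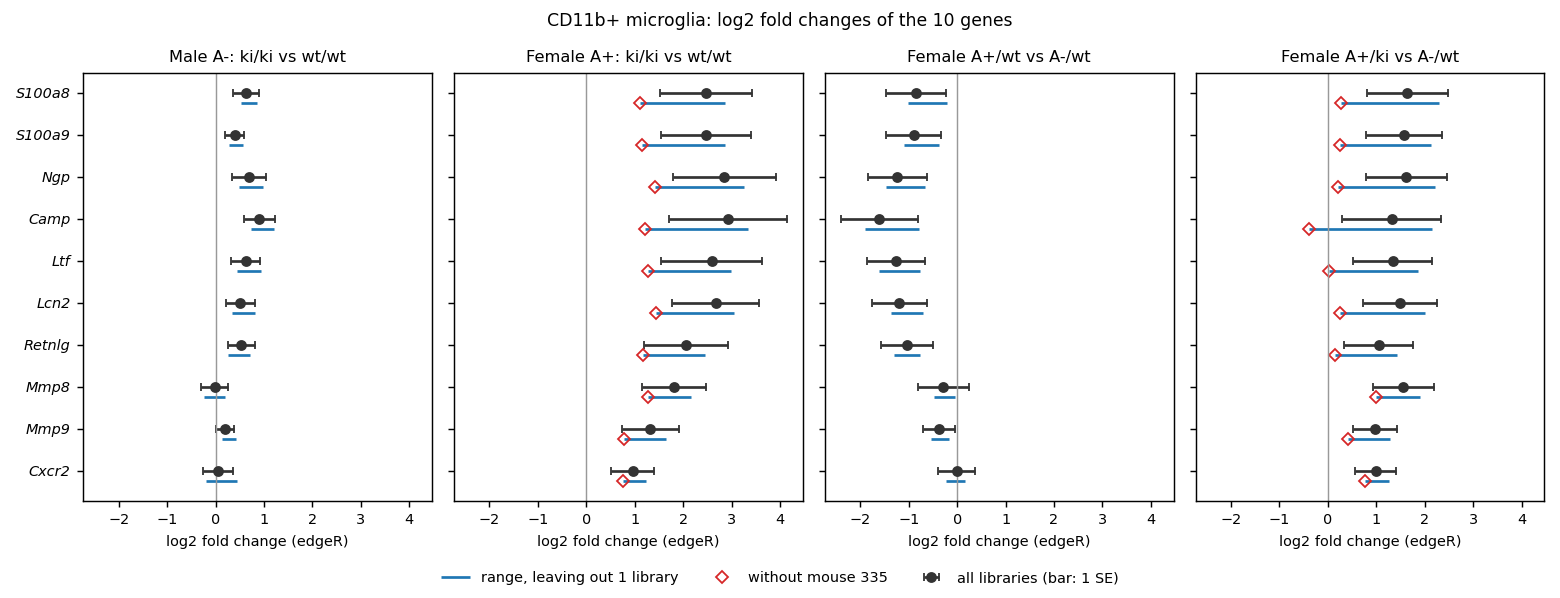
log2 fold change (edgeR) of the 10 genes in 4 comparisons of CD11b+ cells; black points with bars are all libraries ± 1 SE, blue lines span the values when any 1 library is left out, and red diamonds leave out mouse 335. The values without mouse 335 mark the low end of the blue lines in both comparisons that include it, and Camp then falls below 0 against A-/Pwt/wt.

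The same contrast in cortex could be tested for 4 members, since the other 6 did not have 10 counts in 3 libraries. None passed (edgeR, adjusted p = 1 for each), 0 had an unadjusted p under 0.05, DESeq2 called 0, and 0% of 18640 genes passed, beside 11 with DESeq2 and 514 with an unadjusted p under 0.05. S100a9 had a log2 fold change of 0.90 ± 0.69 (SE) and S100a8 of 0.16 ± 0.69, where 1 library, A+/Pki/ki mouse 203, had 35 counts of S100a9 against 2 to 14 in the other 7. Lcn2, which reactive astrocytes can also make, was -0.56 ± 0.45, and Mmp9 was -0.19 ± 0.23. At this depth a difference in the 6 untested genes was not detectable.

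Both A+ groups were set beside the same 7 female A-/Pwt/wt libraries, so the 2 comparisons share their controls, and in both the transgene and the tag in the sample names (b2 for A+, b3 for A-) cannot be told apart. No member passed in either (edgeR), and DESeq2 called 0 in either. For A+/Pwt/wt, 1.29% of all genes were called and 0 members had an unadjusted p under 0.05, beside 1755 of 17355 genes. For A+/Pki/ki, 1.64% of all genes were called and 2 members, Mmp8 and Cxcr2, had an unadjusted p under 0.05, beside 2646 of 17446 genes. Ltf had a log2 fold change of -1.26 ± 0.60 (SE, adjusted p = 0.515) in A+/Pwt/wt and of 1.33 ± 0.81 (adjusted p = 0.461) in A+/Pki/ki against these controls. Camp had -1.61 ± 0.80 (adjusted p = 0.544) and 1.32 ± 1.02 (adjusted p = 0.549). Cxcr2 had -0.01 ± 0.39 (adjusted p = 0.998) and 0.98 ± 0.42 (adjusted p = 0.292). Of the markers of other cells, all 6 of border macrophages had log2 fold changes below 0 in both, with 2 called in A+/Pwt/wt (Pf4 and Cd163) and 1 in A+/Pki/ki (Cbr2), and 1 of 4 tested platelet markers was called lower in A+/Pwt/wt (Gp9), all named because they were called. The border macrophage sum was 148 to 166 CPM in A+/Pwt/wt, 148 to 234 CPM in A+/Pki/ki and 207 to 496 CPM in the controls. All 5 tested erythroid markers had log2 fold changes below 0 in both (medians -1.17 and -1.51) with 0 called. The choroid plexus and neuronal markers had log2 fold changes below 0 in A+/Pki/ki (medians -0.86 and -0.84) and 0 of them were called. The part of these markers in the values of the 10 genes was not tested.

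The control group itself was spread by mouse 236. S100a8 was 146 CPM in that mouse, 63.9 CPM in mouse 225 and 12 to 38.5 CPM in the other 5. Without mouse 236 the log2 fold change of S100a8 in A+/Pwt/wt went from -0.84 to -0.21, and in A+/Pki/ki from 1.64 to 2.29. Without mouse 335 the latter was 0.27, and without both mice it was 0.91 (adjusted p = 0.375), an alternative chosen after the data were seen. Camp in A+/Pki/ki changed sign without mouse 335, to -0.38 (adjusted p = 0.826).

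The difference between the effect of the variant in A- males and in A+ females was tested as an interaction. No member passed (edgeR, adjusted p of 0.172 to 0.324), 1 had an unadjusted p under 0.05 (Mmp8, -1.81 ± 0.79), DESeq2 called 0, and 0% of 17619 genes passed, beside 1185 with DESeq2, 6199 with edgeR without mouse 335, and 4664 with an unadjusted p under 0.05. S100a8 had -1.81 ± 1.07 (SE, male effect minus female effect, log2 scale) and Camp -1.99 ± 1.34. Without mouse 335 these were -0.49 and -0.34, and no member was called. Sex, transgene and the tag in the sample names differ together between the 2 arms and cannot be told apart.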

How the data were processed

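Per the methods of the study, the authors trimmed paired-end reads of bead-selected poly(A) RNA with Trimmomatic 0.39, aligned them with STAR 2.7.9a to GRCm38 with Gencode M25, and deposited counts per gene from featureCounts, which took uniquely mapped reads without regard to strand. The deposited variance-stabilised tables were not used. A gene was tested where 3 or more fitted libraries held 10 or more of its counts, with edgeR 4.0.16 (TMM scaling, quasi-likelihood F-test, Benjamini-Hochberg, threshold 0.05, R 4.3.3), each comparison on its own libraries. The SE is the log2 fold change over the square root of F. Alternatives were DESeq2 1.42.0 (size factors, Wald test), no filter, all groups in one fit, library totals and each library left out. The fits were tested on simulated data. The members and all gene lists were chosen with earlier results of these data known. Of each list the text names up to 3 genes of highest mean CPM, and the 10 genes of greatest likeness (1 of them, also in a list, is not reported here), and says where it goes beyond this. Mice in the text are numbered as in the labels. Of the 55401 gene identifiers, 54349 had the same version in Gencode M21, which gave positions and exon lengths. Group sizes of 3 to 7 and library totals of 16229831 to 43129427 counts set the precision.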

Additional observations from a re-analysis of the deposited data

Results flagged for a closer look

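In 8 of 58 sets of values (1 gene in 1 group of 4 or 7 libraries) the highest library lay apart from the rest of its group by Dixon's test. Chance gives about 1 in 20 sets where values are independent and normally distributed. The values here are unlogged CPM of genes that vary together, some of them near 0, so no excess over that rate can be claimed. In CD11b+ cells of female A-/Pwt/wt mice, mouse 236 lay apart in 5 genes: S100a8 (146 CPM, next highest 63.9), S100a9 (173 CPM, next 80.2), Ngp (151 CPM, next 65.2), Camp (55.4 CPM, next 18.3) and Ltf (115 CPM, next 51.7). These 5 flags come from 1 library and are not independent. That library also had the highest erythroid sum, 1126 CPM, and the part of this in the values was not tested. In cortex of A+/Pki/ki mice, S100a9 was 1.01 CPM in mouse 203 (next 0.264 CPM), and Cxcr2 was 0.182 CPM in mouse 184, where the other 3 libraries had 0 counts. In CD11b+ cells of male A-/Pki/ki mice, Mmp8 was 6.24 CPM in mouse 104 (next 4.13 CPM). Mouse 335, the highest of all CD11b+ libraries in each of the 10 genes, was not set apart in its group of 4, in which mouse 244 was also high.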

How the results depend on the processing

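The limits are mainly those of single libraries. In the male comparison 0 of the 10 genes were called, against 4 with no low-count filter (S100a8, Ngp, Camp and Ltf) and 1 with the DESeq2 Wald test (Camp), and 0 to 4 with each library left out. The 4 came without mouse 139 (S100a8, S100a9, Ngp and Camp). Signs changed only for values near 0 and for Camp: in males Mmp8 (-0.02) was 0.02 (0.0187) with no filter and -0.24 to 0.20 with each library left out, and Cxcr2 (0.05) was -0.20 to 0.45. In cortex S100a8 (0.16) was -0.23 to 0.40. In A+/Pwt/wt against A-/Pwt/wt Cxcr2 (-0.01) was 0.00776 with no filter and -0.23 to 0.15 with each library left out. In A+/Pki/ki against A-/Pwt/wt Camp (1.32) was -0.38 to 2.15, lowest without mouse 335 and highest without mouse 236. In all, 937 refitted log2 fold changes kept sign and side of the threshold, 9 came to pass it and 16 changed sign, and the cause was not tested.

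Over all genes the counts of calls moved by over 1.5 times as follows. In males 2685 became 894 (without mouse 102) to 5439 (without mouse 104). In A+/Pki/ki against A+/Pwt/wt 0 became 7 with DESeq2 and 0 to 1 with libraries left out, and in cortex 0 became 40 with no filter, 11 with DESeq2 and 0 to 2. In A+/Pwt/wt against A-/Pwt/wt 224 became 636 with DESeq2 and 91 (without mouse 380) to 497 (without mouse 223). In A+/Pki/ki against A-/Pwt/wt 286 became 956 with DESeq2, 510 with all groups in one fit, 57 (without mouse 405) to 1097 (without mouse 335), and 833 without mice 335 and 236. The interaction went from 0 to 1185 with DESeq2 and to 6199 without mouse 335. No paired analysis was possible because the groups compared share no replicate number. In cortex 6 of the 10 genes were too sparse to test.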
